A study of Mus musculus with 34 samples.

Results

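CI-994, a benzamide inhibitor of class I histone deacetylases, was compared with its solvent in N2A cells, a mouse neuroblastoma line that grows as undifferentiated neuroblasts. The comparison was chosen by sample labels alone and holds 5 of the 34 RNA-seq libraries of the series: 2 libraries labelled CI_994 and 3 labelled DMSO. The series surveyed small molecules for effects on splicing of neuronal microexons, and the question here was which splicing events and which transcripts differed after CI-994. CI-994 was given at 5 µM. Cells of both groups were harvested after 24 h in 0.4% DMSO, so the control carries the solvent at the same concentration. The study calls its CI-994 and DMSO libraries biological replicates and gives 2 of each, while 3 DMSO libraries are used here. The sources do not say how such replicates were grown. All 5 libraries come from 1 transformed line, which limits them as a model of neurons.

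Histone deacetylases remove acetyl groups from histone tails and from other proteins. The class I enzymes Hdac1, Hdac2 and Hdac3 act inside repressor complexes, and blocking them raises histone acetylation and changes the transcription of many genes. Microexons are very short exons that are mostly included in neurons, where many insert a few amino acids at the surface of a protein domain. Their inclusion depends largely on the SR-related protein Srrm4 and its paralogue Srrm3, which bring the splicing machinery to exons too short to be recognised in the usual way.

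Splicing was read as PSI, the percent of transcripts that include an exon, use a splice site or retain an intron, as deposited per library. An exon of up to 27 nt was called a microexon and a longer one a cassette exon. A call needed a gap of 10 PSI or more between the group means and, from the reads, a posterior above 0.95 for that sign of change. Beside the calls, p-values are from limma on the logit of PSI weighted by reads, fitted to all events with a mean PSI of 5 to 95 and adjusted over them (weighted limma). Reads over exon junctions used for gene levels numbered 40613524, 35566944 and 20013522 in DMSO replicates A, B and C, and 25489846 and 27120558 in CI-994 replicates A and B. The deeper libraries give narrower counting errors, and DMSO replicate C is the shallowest.

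The microexons below are printed because they moved furthest among those with a coding match in the reference. Capitals mark the microexon, lower case the 20 coding bases on either side, 5′ to 3′ on the coding strand, from the GRCm38 genome with GENCODE transcripts. The first 7 were included more with CI-994.
Pacsin2: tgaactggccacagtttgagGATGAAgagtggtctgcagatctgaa
L1cam: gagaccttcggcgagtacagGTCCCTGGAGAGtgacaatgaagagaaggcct
Mtss1: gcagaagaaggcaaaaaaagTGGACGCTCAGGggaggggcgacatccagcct
Sptan1: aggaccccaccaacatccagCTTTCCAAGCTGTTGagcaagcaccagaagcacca
Slc38a10: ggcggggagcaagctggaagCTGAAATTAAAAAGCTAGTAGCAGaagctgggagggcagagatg
Picalm: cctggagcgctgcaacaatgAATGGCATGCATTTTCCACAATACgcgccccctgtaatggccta
Pus7: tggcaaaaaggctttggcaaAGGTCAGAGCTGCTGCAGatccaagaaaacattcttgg
The next 3 were included less.
Trappc13: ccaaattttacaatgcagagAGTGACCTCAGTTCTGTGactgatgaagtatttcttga
Med23: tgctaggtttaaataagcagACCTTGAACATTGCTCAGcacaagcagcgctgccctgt
Nbea: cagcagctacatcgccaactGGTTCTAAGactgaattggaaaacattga
Each of these 10 microexons is a multiple of 3 in length, so that skipping it keeps the reading frame. In GRCm38 coordinates the Pacsin2 microexon is chr15:83383623-83383628, that of L1cam chrX:73855652-73855663, that of Mtss1 chr15:58964497-58964508 and that of Sptan1 chr2:30014158-30014172. The splicing file names Sptan1 by its older symbol Spna2 and Trappc13 as 2410002O22Rik, and those 2 names were matched by exon structure. Coordinates printed further on come from the file, whose build is mm9 in the submitters' processing notes.

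Microexons moved mostly towards inclusion. Of 616 microexons with enough reads, 65 (10.6%) were called increased and 6 (0.974%) decreased with CI-994. For 51 of the 65 (8.28% of those tested) and 5 of the 6 (0.812%), both CI-994 libraries lay outside the range of all 3 DMSO libraries, a count that needs a value in all 5 libraries here and in the other classes. The called increases ran from 10.2 to 58.0 PSI. Genes with a microexon called increased act in adhesion and guidance (L1cam, Slit2, Agrn, Arvcf), clathrin-coated vesicles and endocytosis (Picalm, Synj1, Sgip1, Eea1), the cytoskeleton and its motors (Clasp2, Dctn1, Plec, Mtss1) and small GTPase signalling (Git2, Dock4, Vav2, Agap1); these names were chosen after their values were seen. Of these, Sgip1, Vav2 and Agap1 did not pass weighted limma (adjusted p = 0.14, 0.09 and 0.13), and Sgip1 had a lowest read count of 11. The largest called increase, 58.0 PSI for Kcnq5, a neuronal potassium channel subunit, rests on 1 CI-994 library.

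The 8 microexons named by rule for the largest gains had at least 54 reads in every library. Naming by rule, here and in the other classes, needed groups without overlap and an adjusted p under 0.05 in weighted limma. Neither is therefore added support for an event named by rule. The 24-nt microexon of Clasp2 (chr9:113767699-113767722), which codes for a protein that binds growing microtubule ends, had PSI of 43.4, 27.9 and 40.4 in the DMSO libraries and 68.4 and 80.8 with CI-994. Its gain was 37.4 PSI (adjusted p = 0.0013, weighted limma). The 9-nt microexon of Ppfia2, a presynaptic scaffold of the liprin-alpha family, had PSI of 15, 21.6 and 15.8 against 48.2 and 53.7, a gain of 33.5 (adjusted p = 0.0036, weighted limma). In both genes the groups were far apart, although the Clasp2 libraries spread by 8.2 (SD, n = 3) within DMSO.

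Pacsin2 codes for a membrane-bending protein of endocytosis, and its microexon is the 6-nt insertion printed above. PSI was 37.5, 34.6 and 40.5 in DMSO and 69.0 and 69.5 with CI-994, with 965 to 2081 reads a library, a gain of 31.7 (adjusted p = 3.1e-11, weighted limma). The 12-nt microexon of L1cam, a neural cell adhesion molecule, rose from 42.6, 41.4 and 38.1 to 73.8 and 70.5, a gain of 31.4 (adjusted p = 2.3e-09, weighted limma). A second L1cam microexon of 15 nt, nearer the start of the coding sequence, did not pass the call, with means of 85.0 ± 4.1 (SD, n = 3) and 87.0 PSI (n = 2). The same transcript thus held 1 microexon that moved and 1 for which no change was called.

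Mtss1, which links membranes to actin, stood apart because its 12-nt microexon was almost absent in DMSO. PSI was 2.2, 1.0 and 3.1 in DMSO and 36.0 and 28.8 with CI-994 (adjusted p = 0.00014, weighted limma). Spna2 (Sptan1), the alpha-II spectrin of the membrane skeleton, went from partial to nearly full inclusion of a 15-nt microexon. PSI was 68.3, 69.3 and 66.1 in DMSO and 93.8 and 92.8 with CI-994, with 727 to 2143 reads a library (adjusted p = 1.2e-11, weighted limma).

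The remaining 2 named gains were both 24-nt microexons. For Slc38a10, an amino acid transporter, PSI was 37.1, 40.6 and 47.0 against 71.7 and 60.9 (adjusted p = 0.0029, weighted limma). For Picalm, a clathrin assembly protein, PSI was 30.5, 34.6 and 33.6 against 56.1 and 58.7 (adjusted p = 2.2e-11, weighted limma). The CI-994 libraries lay above every DMSO library for both genes, as naming required.

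Microexons included less formed a short list. The 12-nt microexon of Vps29, a subunit of the retromer that recycles membrane cargo, had PSI of 53.4, 54.2 and 55.4 in DMSO and 37.6 and 33.5 with CI-994, a difference of -18.8 (adjusted p = 3.7e-08, weighted limma). The 18-nt microexon of 2410002O22Rik (Trappc13), a subunit of a vesicle-tethering complex, went from 52.9, 53.9 and 55.6 to 35.4 and 42.6 (adjusted p = 0.0063, weighted limma). Both differences exceeded the spread of either group. For Med23, a subunit of the Mediator complex, the 18-nt microexon had a mean of 42.6 ± 4.3 (SD, n = 3) in DMSO and 29 ± 2.7 (SD, n = 2) with CI-994. For Nbea, a protein of vesicle traffic at synapses, the 9-nt microexon had means of 86.5 ± 1.5 and 75.6 ± 0.6. The other 2 called decreases, chosen here after their values were seen, were in Cacna1b, a presynaptic calcium channel, and Tbc1d24. Neither passed weighted limma (adjusted p = 0.056 and 0.13). Tbc1d24 had a value in only 2 DMSO libraries and 1 CI-994 library, at 88.9, 92.3 and 68.7.

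**Figure D1:**
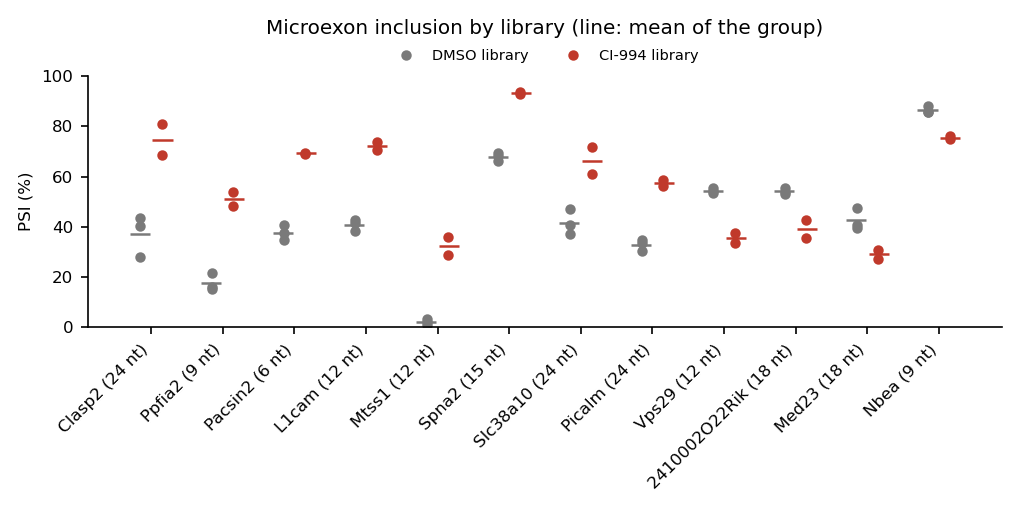
PSI in percent (vertical axis) of the microexons named by rule, with their length in nt, in each of the 3 DMSO libraries (grey) and 2 CI-994 libraries (red); lines are group means. Naming required groups without overlap, so the CI-994 points lie above every DMSO point for the 8 gains and below for the 4 losses. Pacsin2 is at 69.0 and 69.5 against 34.6 to 40.5.

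Several microexons that the study measured by its own assays were present in the RNA-seq table. The 18-nt microexon of Pus7, a pseudouridine synthase, rose from 14.9, 11.7 and 10.2 to 33.9 and 39.2 (adjusted p = 0.0001, weighted limma). The 12-nt microexon of Lphn2, an adhesion G protein-coupled receptor also known as Adgrl2, rose by 17.5 PSI, and the 27-nt microexons of Snx14, a sorting nexin, and Trappc9, a vesicle-tethering subunit, by 16.9 and 15.3. Ergic3, a cargo receptor between the endoplasmic reticulum and the Golgi, gained 13.5 PSI for its 15-nt microexon. All 5 passed weighted limma, with the Ergic3 adjusted p at 0.02 and that of Snx14 at 0.022.

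Other assayed microexons differed by under 10 PSI. The 21-nt microexon of Mef2d, a transcription factor of neurons and muscle, was already at 89.5, 88.7 and 88.7 in DMSO and measured 97.1 and 94.2 with CI-994 (adjusted p = 0.062, weighted limma). That of Zmynd8, a chromatin reader, had means of 51.6 ± 2.2 (SD, n = 3) and 59.4 ± 3.0 (SD, n = 2). The 21-nt microexon of Mast2, a microtubule-associated kinase, read 47.0, 48.9 and 33.3 in DMSO and 48.7 and 49.6 with CI-994. Its groups overlapped, and the difference of 6.1 PSI was smaller than the DMSO SD of 8.5. In the same gene a 148-nt cassette exon rose from a mean of 52.9 to 73.8 (adjusted p = 0.00065, weighted limma). The 36-nt exon of Zdhhc20, a palmitoyltransferase, rose from 29, 41.4 and 31.3 to 64.7 and 74.0 (adjusted p = 2.3e-05, weighted limma). A 45-nt exon of Asph, an aspartyl hydroxylase, was called increased with overlapping groups (adjusted p = 0.16, weighted limma), and for Mgrn1, a ubiquitin ligase, no exon was called.

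Longer cassette exons changed less often as a share of those tested. Of 57571, 638 (1.11%) were called increased and 295 (0.512%) decreased, with both CI-994 libraries outside the DMSO range for 431 (0.749%) and 173 (0.3%). Most of those cassette exons were constitutive: 53157 had a mean DMSO PSI above 90 and could not gain 10 PSI. Among exons with a DMSO PSI of 10 to 90, 54 of 165 microexons (32.7%) and 592 of 2785 cassette exons (21.3%) were called increased. Decreases in that range were 5 microexons (3.0%) and 183 cassette exons (6.6%). The median difference was 6.1 PSI for those microexons and 3.5 for those cassette exons, and 74.5% and 66.9% of them had a value above 0. Both exon classes thus leaned towards inclusion in that range. These exons were picked by their DMSO values, so part of that lean may be built in.

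Exon length bore on these shares as follows. With a DMSO PSI of 10 to 90, the share called increased was 23.08% of 26 exons of 3 to 9 nt, 33.33% of 39 exons of 10 to 15 nt, 30% of 40 exons of 16 to 21 nt and 38.33% of 60 exons of 22 to 27 nt. It was 20.96% at 28 to 60 nt, 19.35% at 61 to 120 nt, 23.03% at 121 to 250 nt and 28.47% among 137 exons over 250 nt. The share did not fall steadily with length. Frame was also described: 90.8% of increased microexons were multiples of 3, against 74.8% of all 616 tested and 90.3% of those with a DMSO PSI of 10 to 90. Among cassette exons, 55.3% of those increased were multiples of 3, against 39.6% of all and 51.8% of those in the same PSI range.

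Replicate-aware tests set how firmly the counts can be read. Limma on the logit of PSI without read weights called 0 of 170376 events (0%) at an adjusted p of 0.05, with 25675 at an unadjusted p under 0.05. The fit weighted by reads, added after the data were seen and run over 13763 events with a mean PSI of 5 to 95, called 1042 (7.57%), of which 805 were higher with CI-994. With at least 10 PSI as well, it called 44 microexons higher and 4 lower, and 294 cassette exons higher and 119 lower.

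**Figure D2:**
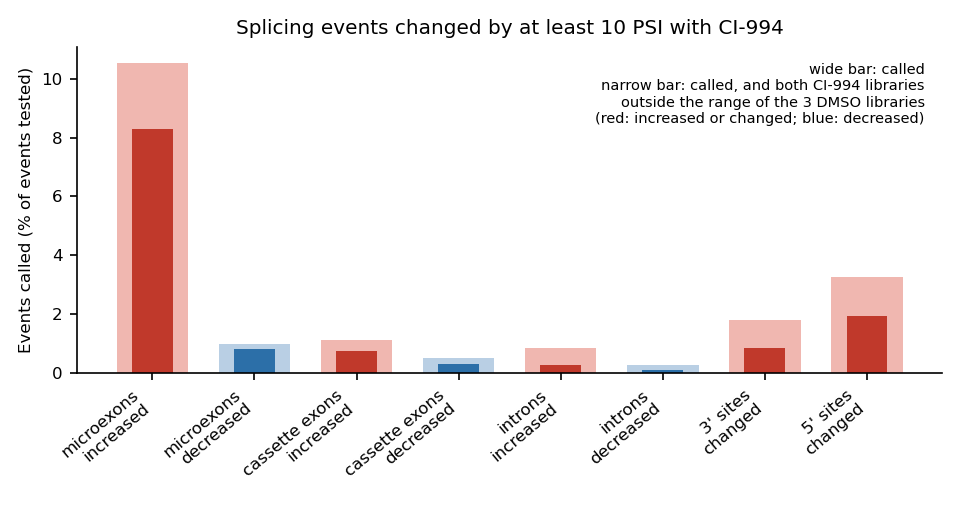
Percent of tested events of each class called changed with CI-994 against DMSO (wide bars) and called with both CI-994 libraries outside the DMSO range (narrow bars), in red for increased or changed and blue for decreased. Microexons gained inclusion in 10.6% of cases, against 1.11% of cassette exons and 0.836% of introns, whose denominators include many constitutive exons and fully spliced introns.

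The cassette exons named by rule for the largest gains each moved by over 40 PSI. The 39-nt exon of Spag9, a scaffold of JNK signalling on motor proteins, rose from 33.5, 35.7 and 36.4 to 81.2 and 75.6 (adjusted p = 1.2e-10, weighted limma). The 78-nt exon of Slain2, which promotes microtubule growth, rose from 7.6, 8.0 and 8.3 to 50.6 and 46.0 (adjusted p = 9.8e-13, weighted limma). In both exons the replicates of a group lay a few PSI apart.

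For Arhgap12, a GTPase-activating protein, a 75-nt exon went from a mean of 38.7 ± 3.5 (SD, n = 3) to 83.5 ± 0.1 (SD, n = 2). Pcyt2, an enzyme of phosphatidylethanolamine synthesis, gained 47.4 PSI for a 54-nt exon, with the CI-994 libraries apart at 67.3 and 93.7. Ogfod2 gained 45.8 PSI, but its DMSO libraries ran from 26.3 to 62.4 and its lowest read count was 36. Rpusd1, of the pseudouridine synthase family, and Nab2, a corepressor of Egr transcription factors, gained 41.0 and 40.1 PSI.

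The cassette exon losses included a splicing regulator, Mbnl1, whose muscleblind protein controls many developmental exons. Its 54-nt exon (chr3:60418605-60418658) had PSI of 55.2, 53.8 and 54.4 in DMSO and 29 and 27.2 with CI-994 (adjusted p = 3.1e-07, weighted limma). The sequence, with the exon in capitals, is from GRCm38 and is shown because a splicing regulator is itself spliced differently.
Mbnl1: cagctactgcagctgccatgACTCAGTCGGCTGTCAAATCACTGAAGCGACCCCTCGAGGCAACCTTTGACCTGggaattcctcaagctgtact
Clip1, which binds growing microtubule ends, lost part of a 117-nt exon that was nearly always included, from 97.0, 98 and 93.9 to 73.7 and 64.4 (adjusted p = 1.2e-06, weighted limma). Smarca2, an ATPase of the SWI/SNF chromatin remodeller, included a 96-nt exon at 48.9, 47.2 and 30.4 in DMSO and 13.8 and 14.5 with CI-994 (adjusted p = 0.00015, weighted limma). The groups did not overlap in either gene, as naming required.

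The differences in Arhgef10, a GTPase exchange factor, and 4833442J19Rik were -30.8 and -30.6 PSI, with DMSO libraries spread by 11.7 and 12.9 (SD, n = 3). Rragb, a GTPase that senses amino acids for mTORC1, fell from a mean of 70.3 ± 5.0 to 43.2 ± 7.9 for an 84-nt exon. Dcaf17 (a difference of -27.7) and AC151908.1 (a difference of -27.5) completed the named losses. AC151908.1 had a lowest read count of 57.

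**Figure D3:**
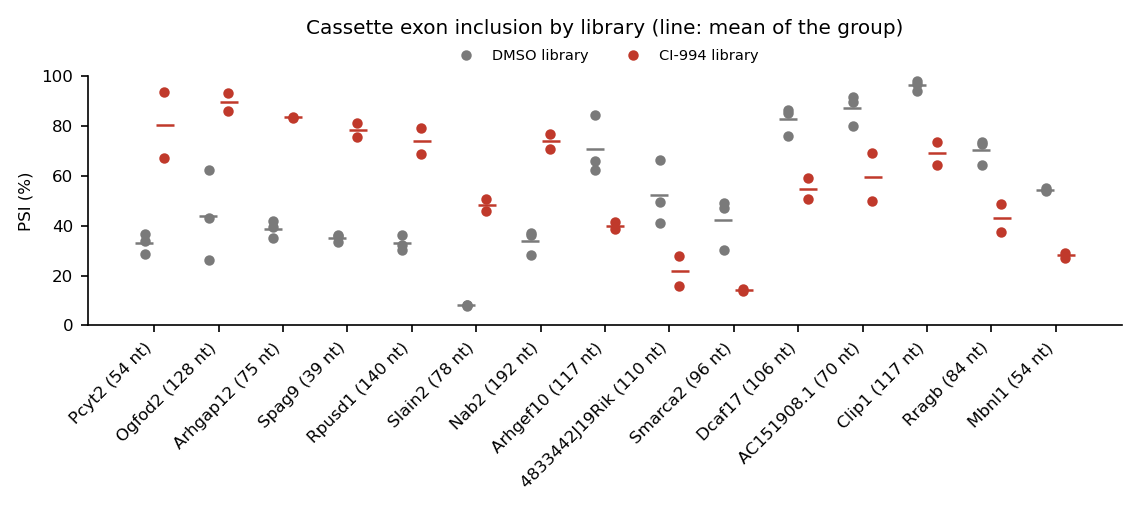
PSI in percent (vertical axis) of 15 cassette exons named by rule, with length in nt, in each DMSO library (grey) and CI-994 library (red); lines are group means. Slain2 at 46.0 and 50.6 lies far above its DMSO points, and the DMSO points of Ogfod2, Arhgef10 and 4833442J19Rik are widely spread.

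Intron retention changed for a small share of introns, and 1 library stood apart. Of 88526 introns, 740 (0.836%) were called retained more and 235 (0.265%) less, with both CI-994 libraries outside the DMSO range for 238 (0.269%) and 74 (0.0836%). Mean retention over the 73877 introns with enough reads in all 5 libraries was 0.82, 0.82 and 0.81 PSI in DMSO, 1.47 in CI-994 replicate A and 0.97 in replicate B. Without CI-994 replicate B, 1119 introns were called retained more, and of the 740, 370 had under 20 reads in some library. What sets replicate A apart was not tested.

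Of the 88526 introns, 86714 had a DMSO PSI under 10 and could not be called retained less. Of 1770 introns with a DMSO PSI of 10 to 90, 194 (11%) were called retained more and 233 (13.2%) less. Their median difference was -1.6 PSI. They were picked by their DMSO values, so part of a lean towards lower values may be built in. Introns retained more were mostly well spliced in DMSO, with 546 of the 740 under 10 PSI, and had a median length of 891.5 nt against 251 nt for those retained less and 1274.5 nt for all. Ift172, an intraflagellar transport gene, held 6 introns retained more, and Lrrc16b and Pan2 held 5 each. Dpp7, a lysosomal peptidase gene, held 5 introns retained less.

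Named introns showed how far single genes moved. In Cdc45, a helicase component of DNA replication, a 598-nt intron was retained at 4.5, 4.2 and 2.7 PSI in DMSO and at 46.2 and 33.3 with CI-994 (adjusted p = 0.00016, weighted limma), while the spliced reads of the gene fell by 2.61 on the log2 scale. In Dpp7, a 529-nt intron fell from 54.6, 54.0 and 53.1 to 22 and 10.3 (adjusted p = 0.0077, weighted limma). Map4k2, a stress kinase gene, fell from 44.1, 35.9 and 40.5 to 10.8 and 7.9 (adjusted p = 0.0025, weighted limma). The groups were separate in all 3 genes, as naming required.

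Ptprn, a protein of neurosecretory granules, had a 216-nt intron at a mean of 56.4 ± 7.2 (SD, n = 3) in DMSO and 30.2 ± 2.6 (SD, n = 2) with CI-994, and Gtpbp2 one at 23.1 ± 5.0 and 7.3 ± 2.6. Snapc4, a subunit of the snRNA gene activator, and Stx16, a Golgi SNARE, rose by 43.4 and 35.2 PSI, on as few as 20 and 36 reads. In Ak1, adenylate kinase, the rise came unevenly from CI-994 libraries at 18.8 and 53.4, with DMSO between 5.4 and 10.4.

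Alternative splice site events were counted without direction, since the sites of an event are complementary. Of 13713 alternative 3′ splice site events, 247 (1.8%) changed, 115 (0.839%) of them without overlap between the groups. Of 9950 alternative 5′ splice site events, 325 (3.27%) changed, 191 (1.92%) without overlap. The largest named change in any class was in Itga7, an integrin of the laminin receptor family. The shortest form of an exon at its 5′ splice site (chr10:128383343-128383458) was used at 3.2, 4.9 and 3.7 PSI in DMSO and 76.0 and 69.8 with CI-994 (adjusted p = 4.9e-07, weighted limma), and spliced reads of the gene rose by 2.71 on the log2 scale.

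Aven, an inhibitor of caspase activation, used a 5′ site at 95.9, 97.7 and 94.1 PSI in DMSO and at 63.3 and 50 with CI-994 (adjusted p = 0.00017, weighted limma). Lrrc27 changed by -41.4 PSI at a 5′ site, on as few as 28 reads. At 3′ sites, Ecsit, an adaptor of Toll receptor signalling and mitochondrial complex I assembly, went from 72.3, 63.2 and 67.6 to 39.1 and 27.4 (adjusted p = 0.0061, weighted limma). Fbxw17 and Patz1 changed by -35.5 and 29.2 PSI, and the CI-994 libraries of Patz1, a zinc finger repressor, were far apart at 42.6 and 71.7.

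Gene levels were read on a pair of scales. The authors' merged RPKM give 1 value per condition, with no spread. Spliced reads are the reads over exon junctions of a gene, per 1000000 such reads in the library (SPM), and give a value for each library but miss genes without introns. Of 10289 genes above 5 RPKM in either condition, 1047 (10.2%) were over 2-fold higher with CI-994 and 2690 (26.1%) over 2-fold lower. The median log2 ratio of these genes was -0.44. Relative to that median, 1687 were higher and 1310 lower, so the share of higher among changed genes was 28% as deposited and 56.3% after centring. A microRNA gene, Mir6236, read 53948.78 RPKM with CI-994 against 18561.36 in DMSO, and its part in that shift was not tested. In bulk RNA, fewer cells of a type and less RNA per cell cannot be told apart.

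By spliced reads, 8892 of 10658 genes (83.4%) passed limma at an adjusted p of 0.05, with 2183 (20.5%) over 2-fold higher and 1286 (12.1%) over 2-fold lower. The median was 0.06. In every one of those 2-fold genes both CI-994 libraries lay outside the DMSO range. They were picked for a large gap beside a small spread, so that separation is no added support. The direction of the imbalance thus differs between the 2 scales. Of the 2183 higher genes, 929 had enough reads for the test only through the CI-994 libraries, and among 9648 genes with enough reads in DMSO 1254 were higher and 1286 lower. A gene that entered only through CI-994 had to be high there, so such members of a list are named below and are no support for its direction. Each change below is given on the spliced-read log2 scale, where the median SD of the DMSO libraries was 0.08. List counts past 2-fold below stand beside 20.5% higher and 12.1% lower of all genes by spliced reads, and 10.2% and 26.1% by RPKM. List counts by adjusted p alone stand beside 4716 of 10658 genes higher and 4176 lower.

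The direct targets of the drug were not uniformly altered. Hdac1 had 50.38, 50.22 and 53.76 SPM in DMSO and 92.43 and 88.46 with CI-994, a log2 fold change of 0.80 ± 0.06 (SE, limma adjusted p = 2e-08). Hdac2 had 589.41, 532.91 and 580.91 against 565.83 and 606.22 and did not pass limma (0.05 ± 0.05, adjusted p = 0.407). Hdac3 fell by 0.25 (adjusted p = 0.000756, limma). Among the 11 deacetylases only Hdac5 and Hdac11, of class IIa and class IV, were past 2-fold, both higher, at log2 fold changes of 1.60 and 1.67. By RPKM, Hdac9 and Hdac10 were also past 2-fold lower, which centring removed. The median of the deacetylases was 0.12, against 0.07 over all genes that could be matched by symbol.

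Srrm4, the main activator of neuronal microexons, was higher with CI-994. It had 43.31, 40.77 and 40.57 SPM in DMSO and 124.76 and 107.19 with CI-994, a log2 fold change of 1.46 ± 0.07 (SE, limma adjusted p = 1.17e-10). Its RPKM were 10.42 and 19.63, a log2 ratio of 0.88 as deposited. Srrm4 (ENSMUSG00000063919.11) lies on chromosome 5, from 116439275 to 116591817 on the minus strand of GRCm38. The change of its paralogue Srrm3 was smaller, with 19.45, 14.68 and 14.89 against 24.25 and 18.33 (0.36 ± 0.14, adjusted p = 0.0289, limma), and the groups overlapped.

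Neural splicing regulators moved both ways. Of 29 tested, 6 were past 2-fold higher, Srrm4 and Esrp2 among them, and 2 lower, with a median of 0.17. Those shares are near the 20.5% higher and 12.1% lower of all genes, and Esrp2 entered the test only through CI-994. By RPKM the same list had 2 higher and 5 lower with a median of -0.40, which became 6 higher and 1 lower after centring. Mbnl2, the paralogue of Mbnl1, rose from 36.59, 38.77 and 37.58 SPM to 156.81 and 146.27 (1.98 ± 0.06). Ptbp2, a repressor of neuronal exons in immature neurons, fell from 177.95, 180.08 and 186.47 to 55.20 and 59.70 (-1.64 ± 0.06, adjusted p = 1.56e-12, limma). Nova1, a neuronal regulator, fell by 1.18, and Elavl2 rose by 1.37. The general factors were lower: of 24 SR and hnRNP genes, 23 were lower at an adjusted p of 0.05 and none higher, with a median of -0.87. At that limit 4176 of all 10658 genes were lower. Log2 fold changes were -1.64 for Hnrnpd, -1.35 for Srsf7 and -1.19 for Srsf1, and 9 of the 24 were past 2-fold. These counts include Srsf12 (-1.18), whose reads were 133.21 to 136.31 SPM in DMSO. Its RPKM were only 0.02 in DMSO and 0.42 with CI-994, so its spliced reads may belong to another gene. Genes of the microexons called increased had a median change of 0.35, and those of the microexons called decreased 0.2. The median was 0.21 over all tested microexons and 0.31 over those with a DMSO PSI of 10 to 90.

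Cell cycle genes fell almost throughout. Of 47 tested, 46 were lower at an adjusted p of 0.05, beside 4176 of all 10658 genes. Past 2-fold lower were 40 of the 47, and the median was -2.0. The kinase Cdk1 had 469.79, 481.35 and 526.99 SPM in DMSO and 67.64 and 67.40 with CI-994 (-2.85 ± 0.05, adjusted p = 1.05e-14, limma). Its partner cyclin Ccna2 and the mitotic survivin Birc5 had log2 fold changes of -2.64 and -2.81. Mcm5, of the replicative helicase, fell from 581.33, 599.12 and 572.26 to 53.67 and 58.37 (-3.36 ± 0.05). The CI-994 libraries lay many-fold below the DMSO libraries in each of these genes. The exception was the cyclin Ccnd2, at 2 RPKM with CI-994 against 0.04, a gene that entered the test only through CI-994. The cyclin Ccnd1 fell by 1.02.

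Of 18 inhibitors of cyclin-dependent kinases and growth arrest genes, 8 were past 2-fold higher and 1 lower. Btg2 and Trp53inp1 entered the test only through CI-994, and without them 6 of 16 were higher and 1 lower, with a median of 0.41. By RPKM the list had 5 higher, 4 lower and a median of 0.13. Cdkn1a, which codes for p21, the best-known transcript raised by deacetylase inhibitors, had 12.48, 12.74 and 11.64 SPM in DMSO and 76.50 and 65.23 with CI-994 (2.43 ± 0.10, adjusted p = 1.16e-11, limma). The stress gene Gadd45a rose by 1.93 and the retinoblastoma gene Rb1 by 1.64. Cdkn1b, coding for p27, was lower instead (-0.92 ± 0.07), as was the Rb relative Rbl1 (-1.05 ± 0.07). Mycn, the neuroblastoma oncogene, had 8.47, 8.13 and 5.65 against 27.38 and 24.30 (1.69 ± 0.15), and Myc rose by 0.33 with a log2 RPKM ratio of 0.05.

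Many neuronal genes were higher. Of 40 genes of neuronal structure and synaptic vesicles, 19 were past 2-fold higher and 2 lower, with a median of 0.89. Without Vamp1, which entered only through CI-994, 18 of 39 were higher, with a median of 0.86. By RPKM 15 were higher and 3 lower. Snap25, a SNARE of vesicle fusion, had 160.54, 160.54 and 166.49 SPM in DMSO and 601.89 and 607.44 with CI-994 (1.89 ± 0.04, adjusted p = 5.33e-14, limma). The calcium sensor Syt1 rose by 2.16, the granule proteins Scg2 and Chga by 2.79 and 2.03 and the vesicle protein Syp by 1.79. Against this direction, Stmn3, a microtubule destabiliser, and Cplx1, a regulator of vesicle fusion, had log2 fold changes of -1.45 and -1.06.

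Genes of the sympathetic lineage, from which neuroblastoma derives, were mostly higher. Of 27 tested, 15 were past 2-fold higher and 3 lower, with a median of 1.2. Without Tfap2b, which entered only through CI-994, 14 of 26 were higher, with a median of 1.15. By RPKM 10 were higher and 4 lower. Dbh, which makes noradrenaline, had 49.93, 52.38 and 47.57 SPM in DMSO and 257.48 and 286.94 with CI-994 (2.42 ± 0.06, adjusted p = 1.61e-13, limma). The vesicular monoamine transporter Slc18a2 rose by 2.41 and the neurotrophin receptor Ngfr by 2.24. The lineage factor Phox2a rose from 25.39, 16 and 17.54 to 112.63 and 116.19. Id3 and Tbx2, regulators of growing progenitors, were lower, with log2 fold changes of -1.62 and -1.48.

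Of 34 members of class I deacetylase complexes, 2 were past 2-fold higher, Rest among them, and 6 lower, with a median of -0.19. By RPKM 0 of 35 were higher and 10 lower, which became 2 higher and 5 lower after centring. Mbd3 and Chd3 of the NuRD complex were lower, with log2 fold changes of -1.78 and -1.73. Rest, the repressor of neuronal genes, read 2.04, 2 and 1.70 against 5.96 and 5.68 (1.23 ± 0.13), with a log2 RPKM ratio of 0.29. Of 25 acetyltransferases, acetyl-lysine readers and elongation factors, 7 were past 2-fold lower and 1 higher. By RPKM 8 of 26 were lower and 0 higher, which became 6 lower and 2 higher after centring. The RPKM counts of lower genes in both lists are near the 26.1% lower of all genes. The acetyltransferases Hat1 and Kat2a were lower, with log2 fold changes of -1.8 and -1.54. Of 16 histone genes above 5 RPKM, 2 were higher and 7 lower, among them the linker histone H1f0, at 63.44 RPKM after CI-994 against 227.71 in the solvent. Replication-dependent histone mRNAs mostly lack poly(A) tails, so a poly(A) library counts them poorly.

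Among the smaller lists, Bmf, a pro-apoptotic BCL2 relative, read 0.67, 0.96 and 0.75 SPM in DMSO and 16.36 and 15.74 with CI-994. It and Bcl2l11 entered the test only through CI-994, and of the other 8 members tested 0 were past 2-fold higher and 1 lower, Bak1, which fell by 1.57. The BCL2 list had a median of 0.07 by spliced reads and -0.85 by RPKM. Of 21 metal, redox and stress genes, 9 were past 2-fold higher and none lower, with Mt1 entering only through CI-994. They included Txnip, an inhibitor of thioredoxin, at 19.20, 17.07 and 20.99 against 247.82 and 238.49 (3.61 ± 0.08), and the metallothionein Mt3 (2.41 ± 0.13). Of the sterol synthesis genes, 0 of 17 were past 2-fold higher and 2 lower, with a median of -0.16.

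**Figure D4:**
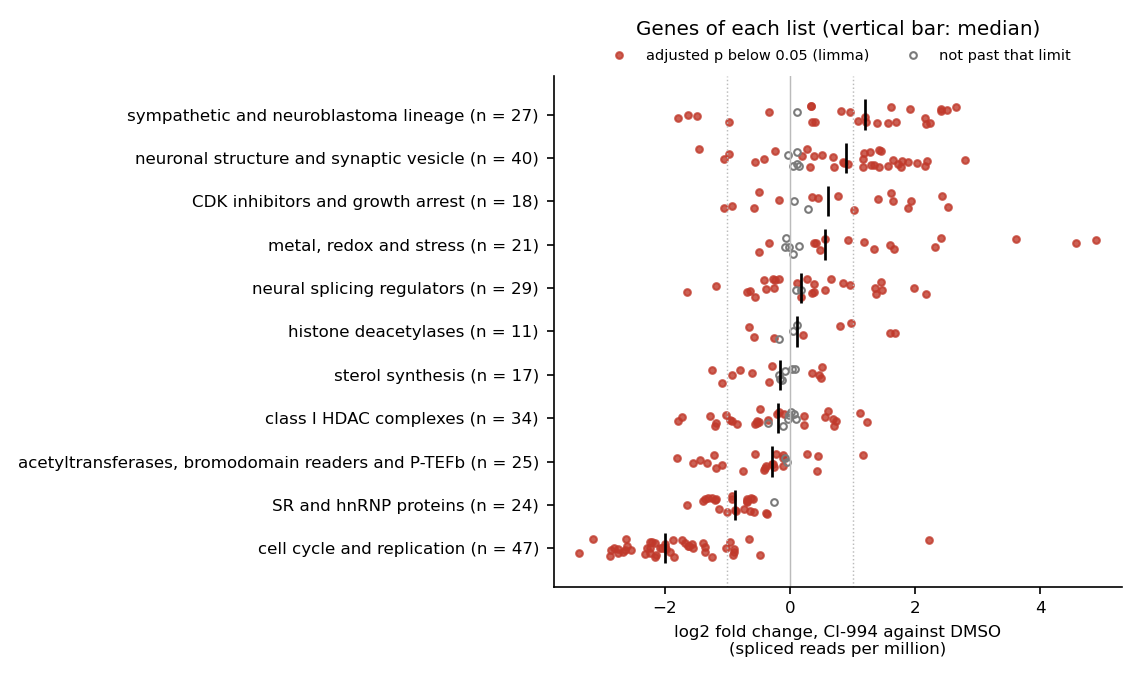
Log2 fold change of spliced reads (SPM), CI-994 against DMSO (horizontal axis), for each tested gene of 11 lists. Filled points passed limma at an adjusted p of 0.05, open points did not, black bars are medians, and dotted lines mark 2-fold. The cell cycle list has a median of -2.0 and the sympathetic list of 1.2.

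The largest rises among protein-coding genes expressed in DMSO included several secreted proteins. Gsn, the actin-severing gelsolin, had 20.90, 24.21 and 22.48 SPM in DMSO and 579.01 and 539.55 with CI-994 (4.57 ± 0.07, adjusted p = 2.23e-15, limma). The chaperone Clu rose by 4.89, the arginine deiminase Padi2 by 5.17, the phagocytosis bridge Mfge8 by 4.74, and the matrix proteins Sparc and Npnt by 4.13 and 4.27. Il4ra, Bco1 and Wdr17 rose by 3.60, 4.28 and 4.4. Ass1, with a log2 fold change of 2.95, entered the test only through CI-994. In each of these genes the CI-994 libraries differed from each other far less than from DMSO.

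The largest falls included replication and RNA processing genes. Lsm3, an Sm-like protein of the U6 snRNP, had 74.21, 80.67 and 84.64 SPM in DMSO and 7.92 and 5.35 with CI-994 (-3.42 ± 0.12, adjusted p = 3.09e-12, limma). Log2 fold changes were -3.08 for the exosome subunit Exosc8, -3.15 for the origin licensing factor Cdc6, -2.88 for the ribonucleotide reductase subunit Rrm2, and -2.90 and -2.95 for the recombination factors Psmc3ip and Rad51ap1. They were -3.87 for Il23a, a cytokine subunit, -3.15 for Fam64a and -3.07 for Xkr5.

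Genes silent in DMSO also appeared. Of 35895 genes under 0.1 RPKM in DMSO, 600 were above 1 RPKM and 59 above 5 RPKM with CI-994. In the other direction, of 31691 genes under 0.1 RPKM with CI-994, 61 were above 1 RPKM and 6 above 5 RPKM in DMSO. Nts, the neuropeptide neurotensin, was highest, at 30.11 RPKM with CI-994 against 0.03. The others were Vill, an actin-binding villin relative, C1s1, a complement protease, and Dmkn, an epidermal secreted protein, at 20.09, 17.05 and 16.43 RPKM with CI-994. RP23-312J21.1 and Rpl28-ps1, listed at 0 in DMSO, are processed pseudogenes whose reads may belong to their parent genes.

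The identity of the cells was checked on the same scale. Of 14 genes that mark N2A and sympathetic neuroblastoma cells, Tubb3 stood at 395.99 RPKM and Stmn2 at 174.75 in DMSO, but the neurofilament genes Nefl and Nefm were both at 0.01 and Dcx at 0.07. Of 28 markers of other cell types, 25 were under 1 RPKM in DMSO and 13 at 0, and with CI-994 9 were above 1 and 3 above 5 RPKM. Without Myh3, which N2A expressed at 27.99 RPKM, the summed spliced reads of these markers were 7.0 to 7.9 SPM in DMSO and 155.7 to 160.6 with CI-994. With Myh3 the sums were 419.6 to 432.8 and 742.4 to 776.7. Col1a1, a fibroblast collagen, read 0.05, 0.11 and 0.30 against 100.55 and 93.25, and Des, desmin of muscle, 0.15, 0.37 and 0.10 against 10.24 and 10.99, and both had enough reads only through CI-994. Hba-a1, an alpha globin, was listed at 0 RPKM in DMSO and at 11 with CI-994, whereas Mog, Epcam, Alb and Ins1 were at or under 0.04 in both. Their part in the silent genes that appeared was not tested, and contaminating cells cannot be told apart from a change within N2A cells here. Of 27 germline genes 4 were tested. Tex14 and Tdrd9 entered only through CI-994, and of the other 2 Asz1 was past 2-fold lower.

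Starting level and gene size went with the RPKM change. The median log2 ratio was 0.22 in genes at 1 to 5 RPKM in DMSO, -0.26 at 5 to 20, -0.63 at 20 to 100 and -0.97 above 100 RPKM. Of the 1221 genes above 100 RPKM, 48.3% were over 2-fold lower and 1.1% higher. Genes were binned by 1 of the values in the ratio, so part of this order is built in. By genomic span, 42.7% of genes under 10 kb and 9.7% of those of 250 kb or more were over 2-fold lower, with medians of -0.83 and 0.05. On the spliced-read scale the medians of the same bins were -0.44 and 0.45, so the order by span was alike on both scales, and the spliced-read medians were higher throughout.

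**Figure D5:**
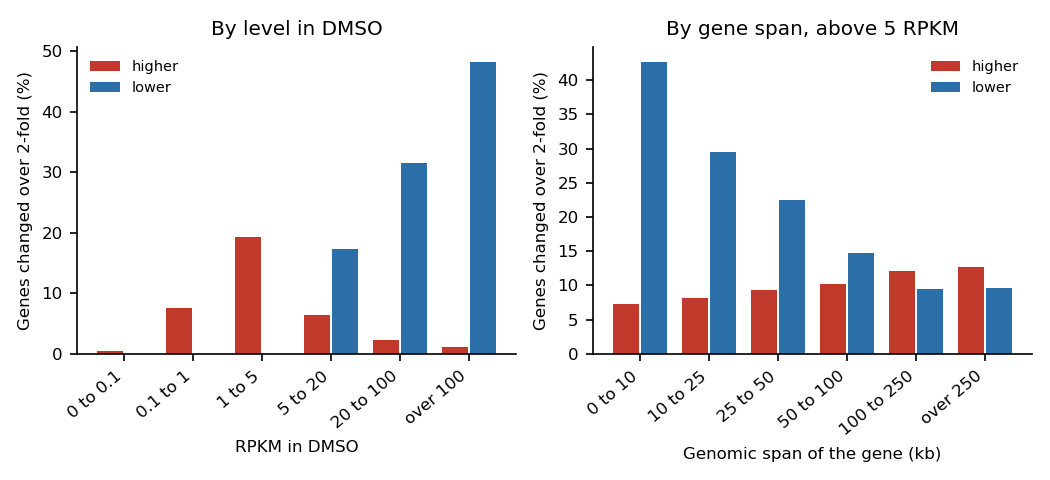
Percent of genes over 2-fold higher (red) or lower (blue) with CI-994 by RPKM as deposited, in bins of DMSO RPKM (left) and of genomic gene span in kb for genes above 5 RPKM (right). Genes under 5 RPKM in DMSO could only count as higher, and the share lower is 48.3% above 100 RPKM and 42.7% under 10 kb.

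Other deacetylase inhibitors in the series were given at other doses, so their values stand beside those of CI-994 with no comparison. Vorinostat, a hydroxamate, was used at 2.5 µM, and the CI-994 relatives BRD4884 and BRD6688 at 10 µM. Mean PSI of the Pacsin2 microexon was 69.2 with CI-994, 58.9 with Vorinostat, 60.1 with BRD4884 and 57.5 with BRD6688, and 37.5 in DMSO. For the Mtss1 microexon the same order gave 32.4, 12.2, 13.9, 8.0 and 2.1. RPKM of Srrm4 were 19.63 with CI-994, 12.36 with Vorinostat, 11 with BRD4884, 15.37 with BRD6688 and 10.42 in DMSO.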

How the data were processed

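PolyA+ RNA-seq of N2A cells was used. Per the submitters' processing notes and the study's methods, the authors quantified splicing with vast-tools on mm9 and deposited PSI in percent with a quality string of read scores for each library, and deposited RPKM merged over the replicates of a condition (Salmon 0.10.2 and edgeR are named in the notes). A further table holds the authors' own comparisons and was not used. All 5 libraries were mapped to groups by their labels. 0 columns were left unmapped.

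Coverage and balance filters followed the study's methods, except that exons with a balance score of na were also kept. An event had to pass the filters in 2 DMSO libraries and 1 CI-994 library. Introns needed 15 reads and a balance p above 0.05. The call needed 10 PSI and a posterior above 0.95, from 2000 draws of a beta distribution for each library, averaged within a group. Limma 3.58.1 (R 4.3.3, with Python 3.11.15) was fitted to logit PSI with a prior of 0.5 reads and Benjamini-Hochberg adjustment. That fit called 0 events, so a fit weighted by the inverse binomial variance (mean PSI 5 to 95) was added after the data were seen, and it took the place of the planned adjusted p in choosing named events. Named events were called, had 20 reads in every library and did not overlap between groups: the 8 largest gains and 4 losses of microexons, 8 and 8 of cassette exons, 4 and 4 of introns and 3 alternative sites of each kind, plus exons the study assays. Some items that these rules name are not reported here. Named genes were the 10 largest rises and 10 falls, the 6 highest of those under 0.1 RPKM in DMSO, and members of fixed lists with the largest change or a textbook role. Exon junction reads were summed per gene from the quality strings, and log2 values with a pseudocount of 1 read per 1000000 were tested with limma where 50 reads were reached in 2 libraries. RPKM ratios used a pseudocount of 0.5. Fold changes understate the change of low genes. Members and lists were chosen with earlier results of these data known. Scripts were tested on simulated data. Alternatives covered thresholds, read minimums, pseudocounts, scaling, a replicate block and leaving out each library. Depth was 20013522 to 40613524 junction reads a library, and merged RPKM carry no spread. Sequences came from GRCm38, where 51 of 58 exons sought had 1 match by exon structure.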

Additional observations from a re-analysis of the deposited data

How the results depend on the processing

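Of 169 alternatives, 101 left a count within 1.5 times and 68 moved it, and the cause was not tested. Counts below run in the order microexons up and down, cassette exons up and down, introns up and down, and 3′ and 5′ site events. A limit of 15 PSI gave 35, 3, 290, 124, 354, 127, 94 and 135. Limma on logit PSI gave 0 throughout, also with a replicate block, while a prior of 1 read gave 1449 events in all, leaving out CI-994 replicate A gave 610 and leaving out any other library 0. Weighted limma gave 119 cassette exons down, 294 up, 95 and 22 introns, 36 and 72 site events and 1042 events in all. With a replicate block it gave 41, 3, 276, 103, 42, 13, 20 and 59, and 840 in all. Draws pooled over libraries gave 415 and 108 introns and 121 and 162 site events. Without overlap between groups there were 173 cassette exons down, 238 and 74 introns and 115 and 191 site events. Microexons of up to 15 nt gave 25 and 3. A posterior above 0.99 gave 152 introns down, and 20 reads in every library gave 370 and 123 introns. Leaving out 1 library gave 62 to 70 microexons up, 7 to 10 down, 657 to 740 and 332 to 438 cassette exons, 577 to 1119 and 181 to 345 introns, 270 to 387 and 357 to 399 site events, with the highest 3′ count without CI-994 replicate A and the highest microexon loss and intron gain counts without replicate B.

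By RPKM, a minimum of 1 RPKM gave 2397 higher genes, no minimum 2993, and centring 1687 higher and 1310 lower. Centring left 8 of the 26 SR and hnRNP genes that were 2-fold lower. By spliced reads, leaving out 1 library gave 1328 to 2218 higher genes and 1272 to 1334 lower, with the low counts of 1328 and 1380 without CI-994 replicate A or B, where the lone sample is assumed to vary like the rest. A replicate block on the letters A and B gave 8842 genes at an adjusted p of 0.05, against 8892. Only 2 letters are shared, and deviations of same-lettered libraries correlated at 0.06 and -0.08 over genes, so the letters were not taken as pairs. With 2 CI-994 libraries, each SD rests on a single difference. Depth limits the introns most, since many calls rest on few reads.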
